A study of Mus musculus with 6 samples.

Results

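Macrophage and foam cell genes are described here across 6 aortas of mice prone to atherosclerosis. The 37 genes were listed by what they are known to mark, and a gene was measured where the platform annotation ties a probe set to that gene alone. All 37 of 37 had such a probe set, 1 each, among 19752 genes and 25254 probe sets in all. The genes were placed in 5 groups by known role: 10 core macrophage genes, 10 genes of resident or efferocytic macrophages, 6 of inflammatory or monocyte-derived cells, 7 of foam cells and their lysosomes, and 4 scavenger receptors.

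The aortas came from C57BL/6 mice aged 20 weeks, 3 that were apoe-/- (called ApoE-KO) and 3 that were apoe-/- adora1-/- (called DKO). Both groups therefore lack Apoe, the apolipoprotein that clears remnant particles, and the DKO also lack Adora1, the adenosine A1 receptor. Each sample was hybridised to 1 Affymetrix whole-transcript array, and each value is a log2 intensity, so that a difference of 1 is a doubling. The sample titles name an aorta, a group and a replicate, and each array was taken as 1 mouse. The series text calls the comparison group Adora1 knockouts, whereas the labels of its samples say apoe-/-, and these labels were followed. No wild-type aorta was among the 6, and the labels used here give no plaque size, sex or diet.

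Macrophages enter and live in the artery wall, where they take up modified lipoproteins through scavenger receptors and become foam cells. Resident macrophages of the adventitia carry receptors such as CD206 and CD163 and clear dying cells, while cells newly derived from monocytes carry more integrins and pattern-recognition receptors. Lipid-laden cells are known for the TREM2 receptor, for GPNMB and for abundant lysosomal proteases.

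No gene of the 37 passed between the genotypes, and the widest differences lay between single DKO mice. The array of DKO replicate 1 was the lowest of the 6 for 30 of the 37 genes, where it was the lowest for 19.0% of all probe sets. The array of DKO replicate 2 was the highest for 27 of the 37, against 11.6% of all probe sets. Both held at once for 23 of the 37 genes, against 2.78% of all probe sets. The ApoE-KO mice lay between them for most genes, so the DKO group reached both below and above the controls.

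**Figure D1:**
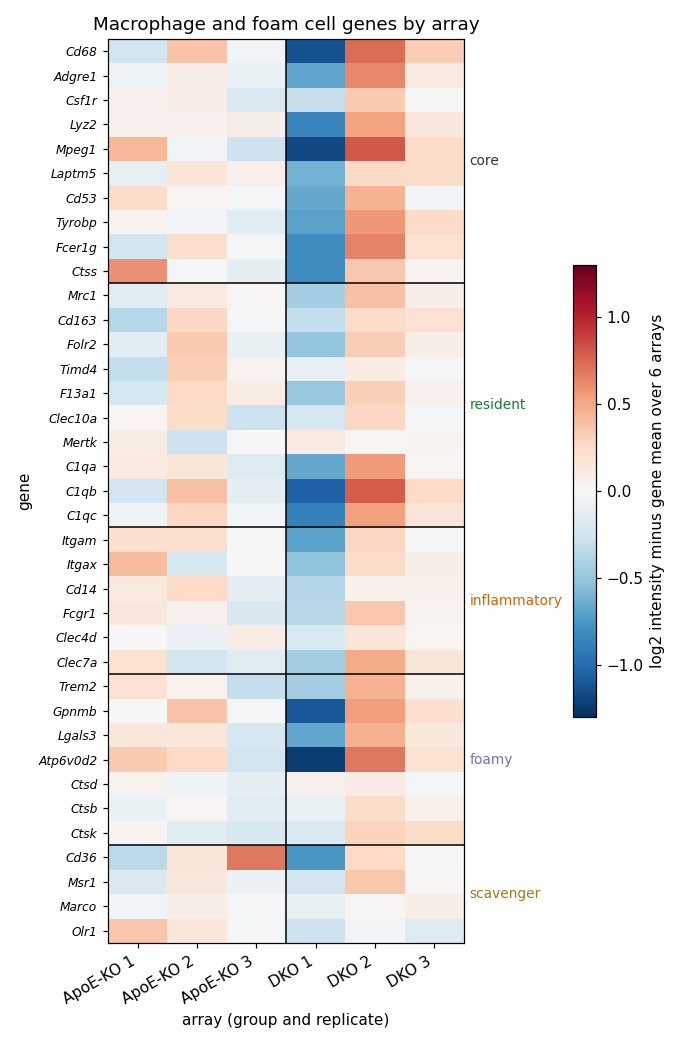
Log2 intensity of each of the 37 genes (rows, grouped by role) minus the gene's mean over the 6 arrays, in each array (columns, 3 ApoE-KO and 3 DKO mice). DKO replicate 1 was the lowest array for 30 genes and DKO replicate 2 the highest for 27.

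The bases before the start site of 5 members are shown: Mpeg1, Cd68, C1qb and Gpnmb, which had wide swings between the DKO mice, and Ctsd, which hardly varied. These 5 were picked by their values in these arrays, and a link between the sequences and the values was not tested. The sequences are those of RefSeq (build GRCm38.p6), 5′ to 3′ on the strand of the gene, and end at the base before the start site. Capitals mark matches on either strand to 3 short words: GAGGAA, the core of sites for the macrophage factor PU.1, CACGTG, the E-box read by the lysosomal regulators TFEB and MITF, and TGACTCA, a site for AP-1, which reads TGAGTCA on the other strand. GAGGAA is also part of the longer word GAGGAAGT counted below; a position is that of the first base of a match, counted back from the start site.
Mpeg1, chr19:12460520-12460769, plus strand: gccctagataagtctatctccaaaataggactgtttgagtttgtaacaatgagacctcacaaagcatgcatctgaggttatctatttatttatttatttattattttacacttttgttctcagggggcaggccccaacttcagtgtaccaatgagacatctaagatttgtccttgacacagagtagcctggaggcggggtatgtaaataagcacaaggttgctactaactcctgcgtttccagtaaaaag
Cd68, chr11:69666171-69666420, minus strand: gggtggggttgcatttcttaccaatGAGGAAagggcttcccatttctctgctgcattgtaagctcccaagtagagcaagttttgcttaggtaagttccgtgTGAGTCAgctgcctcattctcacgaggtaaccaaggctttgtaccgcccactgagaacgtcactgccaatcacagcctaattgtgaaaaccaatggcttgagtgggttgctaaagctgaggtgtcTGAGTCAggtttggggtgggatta
C1qb, chr4:136886201-136886450, minus strand: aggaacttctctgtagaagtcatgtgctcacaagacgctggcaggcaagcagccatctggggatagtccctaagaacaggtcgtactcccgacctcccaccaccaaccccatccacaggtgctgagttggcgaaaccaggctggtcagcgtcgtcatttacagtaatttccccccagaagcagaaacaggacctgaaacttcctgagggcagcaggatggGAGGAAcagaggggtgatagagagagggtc
Gpnmb, chr6:49036268-49036517, plus strand: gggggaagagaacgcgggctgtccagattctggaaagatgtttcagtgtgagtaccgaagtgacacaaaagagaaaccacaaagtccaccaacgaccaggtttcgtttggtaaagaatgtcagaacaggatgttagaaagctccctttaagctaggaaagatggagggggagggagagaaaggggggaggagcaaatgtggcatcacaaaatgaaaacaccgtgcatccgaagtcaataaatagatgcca
Ctsd, chr7:142387828-142388077, minus strand: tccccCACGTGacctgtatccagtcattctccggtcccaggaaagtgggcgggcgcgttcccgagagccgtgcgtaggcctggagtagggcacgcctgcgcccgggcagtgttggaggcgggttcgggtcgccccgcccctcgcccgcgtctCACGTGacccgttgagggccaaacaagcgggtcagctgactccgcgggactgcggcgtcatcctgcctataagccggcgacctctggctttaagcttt

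The table of start sites held 28 of the 37 genes. GAGGAA stood in the 250 bases before a start site of 16 of these 28 genes (57.1%), and in 25.9% of the 27025 genes of the table. Its longer form GAGGAAGT stood in 1 of the 28, C1qc, and in 2.79% of all genes. CACGTG stood in 1 of the 28, Ctsd, at -245 and -98, and in 6.86% of all genes. TGACTCA stood in 4 of the 28 (14.3%), namely Cd68, Folr2, Itgax and Olr1, and in 5.16% of all genes. In the windows of Mpeg1 and Gpnmb none of these words was present. A match shows only that the letters are there, and these shares carry no test.

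Among the core genes, DKO replicate 1 was the lowest array for 10 of 10 and DKO replicate 2 the highest for 9 of 10. Mpeg1, which encodes the pore-forming protein perforin-2 of phagocytes (probe set 10461721), read 9.14, 8.67 and 8.44 in ApoE-KO replicates 1 to 3 and 7.53, 9.51 and 8.94 in DKO replicates 1 to 3. Cd68, the lysosomal glycoprotein used to stain plaque macrophages (probe set 10387536), read 9.93, 10.54 and 10.13 in the ApoE-KO mice and 9.04, 10.89 and 10.48 in the DKO mice. In both genes DKO replicate 1 lay below all 3 ApoE-KO mice and DKO replicate 2 above all 3, and the groups overlapped.

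Lyz2, which encodes the lysozyme of myeloid cells, was nearly constant in ApoE-KO at 12.34, 12.35 and 12.36, and read 11.43, 12.81 and 12.44 in DKO. Its SD was 0.0093 in ApoE-KO and 0.71 in DKO (n = 3 each). Adgre1, which encodes the antigen stained as a pan-macrophage marker in mice, read 9.27, 9.42 and 9.25 in the ApoE-KO mice and 8.64, 9.95 and 9.45 in the DKO mice. Csf1r, the receptor for the growth factor that macrophages need to survive, varied less, at 10.20, 10.23 and 9.94 in the ApoE-KO mice and 9.85, 10.48 and 10.15 in the DKO mice. All 3 genes had their lowest value in DKO replicate 1 and their highest in DKO replicate 2.

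Tyrobp and Fcer1g encode the adaptors that carry the activating signal of TREM2 and of Fc and lectin receptors. Tyrobp read 9.33, 9.25 and 9.14 in the ApoE-KO mice and 8.58, 9.85 and 9.53 in the DKO mice. Fcer1g read 9.42, 9.88 and 9.63 in the ApoE-KO mice and 8.85, 10.30 and 9.86 in the DKO mice. Both adaptors had the same order of the DKO mice as Mpeg1 and Cd68, with replicate 1 lowest, replicate 3 between and replicate 2 highest.

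Ctss, the elastin-degrading cathepsin S, was the core gene whose highest array was not a DKO one: it read 10.43, 9.82 and 9.71 in the ApoE-KO mice and 9.02, 10.19 and 9.88 in the DKO mice. Cd53, a leukocyte tetraspanin, read 9.16, 8.94 and 8.90 in the ApoE-KO mice and 8.25, 9.36 and 8.88 in the DKO mice. Laptm5, a lysosomal membrane protein of blood cells, read 10.88, 11.14 and 11.05 in the ApoE-KO mice and 10.37, 11.25 and 11.23 in the DKO mice. In the limma fit over all probe sets the difference between groups (DKO minus ApoE-KO, log2) was -0.29 for Ctss (95% interval -1.04 to 0.46), -0.17 for Cd53 (-0.78 to 0.44), -0.12 for Lyz2 (-0.86 to 0.62) and -0.07 for Laptm5 (-0.63 to 0.48). None of these 4 was larger than the spread between mice (adjusted p from 0.932 to 0.976).

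The resident group split into members that followed the core genes and members that did not. The chains of C1q, the complement component that tags dying cells for uptake, followed them: C1qb read 11.09, 11.73 and 11.21 in the ApoE-KO mice and 10.29, 12.13 and 11.60 in the DKO mice (probe set 10517508). C1qa read 9.69, 9.73 and 9.41 in the ApoE-KO mice and 8.91, 10.13 and 9.59 in the DKO mice, and C1qc 10.92, 11.23 and 10.94 against 10.08, 11.50 and 11.13. For these 3 chains the mean deviation from the gene's own mean was -0.87 in DKO replicate 1 and 0.62 in DKO replicate 2, whereas for the other 7 resident genes it was -0.28 and 0.24.

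Mrc1, the mannose receptor CD206, read 9.95, 10.23 and 10.12 in the ApoE-KO mice and 9.66, 10.48 and 10.18 in the DKO mice. F13a1, the coagulation factor XIII A chain of resident macrophages, read 10.09, 10.57 and 10.40 in the ApoE-KO mice and 9.82, 10.62 and 10.37 in the DKO mice. Folr2, the folate receptor beta, read 9.42, 9.91 and 9.47 in the ApoE-KO mice and 9.06, 9.89 and 9.64 in the DKO mice. These receptors and F13a1 shared the low value of DKO replicate 1, with smaller gaps than C1qb.

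Cd163, the haemoglobin scavenger receptor, read 8.28, 8.92 and 8.63 in the ApoE-KO mice and 8.32, 8.89 and 8.83 in the DKO mice. Timd4, a phosphatidylserine receptor of long-lived macrophages, read 7.50, 8.13 and 7.87 in the ApoE-KO mice and 7.72, 7.92 and 7.80 in the DKO mice. In Cd163 and Timd4 the lowest array was ApoE-KO replicate 1 and the highest ApoE-KO replicate 2. Clec10a, a galactose-binding lectin, had its lowest value of 6.92 in ApoE-KO replicate 3 and its highest of 7.47 in DKO replicate 2. The mean of its probe set lay at percentile 34.4 of all probe sets.

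Mertk, the receptor kinase that drives the uptake of apoptotic cells, went against the group: it read 11.52, 11.14 and 11.42 in the ApoE-KO mice and 11.53, 11.44 and 11.45 in the DKO mice. DKO replicate 1 was its highest array, the only such case among the 37 genes. The limma differences were 0.11 for Mertk (95% interval -0.14 to 0.37), 0.07 for Cd163 (-0.41 to 0.56), -0.07 for Folr2 (-0.61 to 0.47) and -0.08 for F13a1 (-0.60 to 0.43). None passed (adjusted p from 0.920 to 0.978).

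All 6 inflammatory genes were lowest in DKO replicate 1. Itgam, the integrin chain CD11b of monocytes and neutrophils, read 8.25, 8.25 and 8.03 in the ApoE-KO mice and 7.35, 8.31 and 8.05 in the DKO mice. Itgax, the integrin chain CD11c of dendritic cells and lipid-laden macrophages, read 7.66, 7.05 and 7.25 in the ApoE-KO mice and 6.73, 7.49 and 7.33 in the DKO mice. Clec7a, the beta-glucan receptor dectin-1, read 7.58, 7.14 and 7.22 in the ApoE-KO mice and 6.94, 7.86 and 7.53 in the DKO mice. ApoE-KO replicate 1 was the highest control for Itgax and Clec7a, and the groups overlapped in all of these.

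Cd14, the co-receptor for lipopolysaccharide, read 7.96, 8.10 and 7.71 in the ApoE-KO mice and 7.46, 7.90 and 7.90 in the DKO mice. Fcgr1, the high-affinity IgG receptor, read 7.71, 7.62 and 7.35 in the ApoE-KO mice and 7.20, 7.92 and 7.60 in the DKO mice. Clec4d, an inducible lectin receptor, stayed between 6.07 and 6.42 in all 6 mice. The limma differences were -0.28 for Itgam (95% interval -0.82 to 0.27), -0.17 for Cd14 (-0.53 to 0.19), -0.14 for Itgax (-0.68 to 0.40) and 0.13 for Clec7a (-0.42 to 0.68), with adjusted p of 0.90, 0.909, 0.951 and 0.954, so none passed.

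The foam cell genes also split. Gpnmb, a membrane glycoprotein of lipid-loaded macrophages (probe set 10538187), read 10.84, 11.22 and 10.83 in the ApoE-KO mice and 9.74, 11.39 and 11.07 in the DKO mice. Atp6v0d2, a subunit of the proton pump that acidifies lysosomes, read 8.34, 8.25 and 7.74 in the ApoE-KO mice and 6.77, 8.69 and 8.19 in the DKO mice. Trem2, the lipid-sensing receptor, read 8.88, 8.73 and 8.37 in the ApoE-KO mice and 8.23, 9.14 and 8.74 in the DKO mice. Lgals3, which encodes the galectin also called Mac-2, read 9.75, 9.74 and 9.38 in the ApoE-KO mice and 8.92, 10.06 and 9.73 in the DKO mice. In these 4 genes DKO replicate 1 was lowest and DKO replicate 2 highest.

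In none of the 3 cathepsins of the group was DKO replicate 1 the lowest array. Ctsd, the aspartic protease cathepsin D (probe set 10569319), read 12.16, 12.07 and 11.99 in the ApoE-KO mice and 12.17, 12.22 and 12.09 in the DKO mice. Ctsb, the cysteine protease cathepsin B, read 12.26, 12.36 and 12.19 in the ApoE-KO mice and 12.26, 12.58 and 12.41 in the DKO mice. Ctsk, the collagen-degrading cathepsin K, read 9.93, 9.73 and 9.68 in the ApoE-KO mice and 9.70, 10.18 and 10.13 in the DKO mice. For Ctsk the pair differences were -0.22, 0.45 and 0.45, which is the order lower, higher, higher of most core genes. The lowest array of all 3 cathepsins was ApoE-KO replicate 3, and cathepsins B and D are known to be made by most cells of the artery wall.

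The limma differences were 0.22 for Ctsk (95% interval -0.12 to 0.57), 0.15 for Ctsb (-0.08 to 0.38), 0.09 for Ctsd (-0.09 to 0.27) and -0.23 for Gpnmb (-1.16 to 0.70). None passed (adjusted p from 0.869 to 0.953). The interval of Gpnmb was much wider than that of Ctsd, and the SD among the DKO mice was 0.87 for Gpnmb and 0.068 for Ctsd.

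The scavenger receptors had few values in common beyond the low one of DKO replicate 1. Olr1, the oxidised LDL receptor LOX-1, was lower in all 3 DKO mice, at 6.67, 6.46 and 6.29 in the ApoE-KO mice and 6.04, 6.27 and 6.14 in the DKO mice. Its probe set was dim, with a mean at percentile 18.6 of all probe sets, and a filter at the 40th percentile dropped it. It was the only 1 of the 37 genes whose groups did not overlap; of all probe sets, 6.47% lay wholly lower in DKO. Its difference of -0.32 (95% interval -0.59 to -0.05) had an unadjusted p of 0.0247 and did not pass over all probe sets (limma, adjusted p = 0.861). With the replicate number as a block the unadjusted p was 0.0235 and the adjusted p 0.235.

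Cd36, the fatty acid and oxidised LDL receptor that adipocytes and capillary endothelium also make, read 9.97, 10.49 and 11.01 in the ApoE-KO mice and 9.57, 10.58 and 10.33 in the DKO mice. Its highest array was ApoE-KO replicate 3, unlike any other gene of the 37. Msr1, the class A scavenger receptor, read 7.97, 8.29 and 8.08 in the ApoE-KO mice and 7.92, 8.51 and 8.17 in the DKO mice. Marco, a scavenger receptor of alveolar and marginal zone macrophages, was dim (mean at percentile 30.8) and stayed between 6.91 and 7.08 in all 6. Their limma differences were -0.33 (95% interval -1.10 to 0.44), 0.09 (-0.29 to 0.47) and -0.0013 (-0.18 to 0.18), with adjusted p of 0.928, 0.954 and 0.998, and the sign for Marco turned with quantile normalization or median centring.

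**Figure D2:**
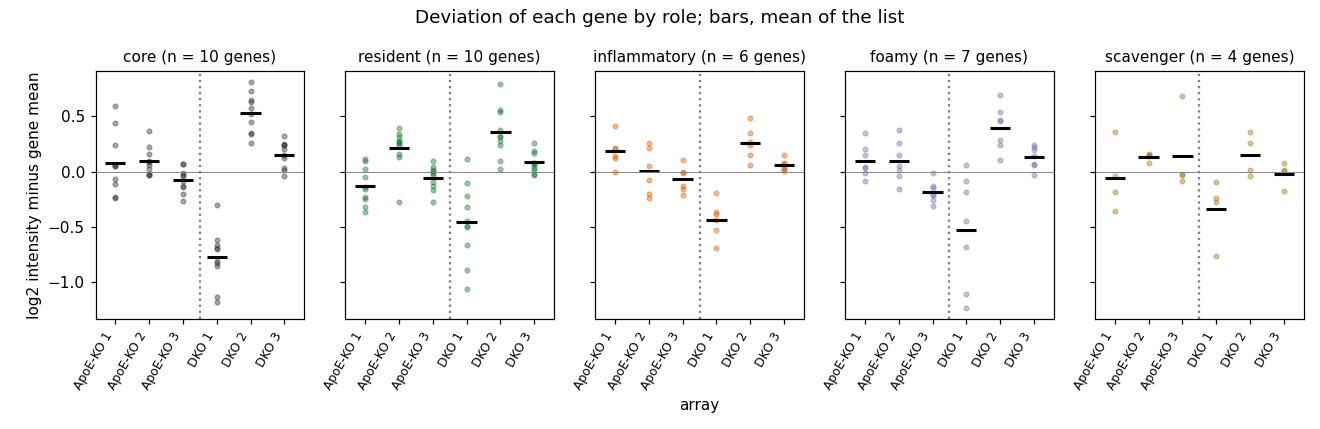
Log2 intensity minus the gene's mean over the 6 arrays, with 1 point per gene and a bar at the mean of each role group, in each array. The core genes had means of -0.77 in DKO replicate 1 and 0.53 in DKO replicate 2, and the scavenger receptors -0.34 and 0.15.

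Over all 37 genes, 0 passed between the genotypes at an adjusted p of 0.05 (limma), and 0 of the 25254 probe sets did, a background of 0%. At an unadjusted p of 0.05, 1 of the 37 passed, Olr1, against 5.62% of all probe sets. With the replicate number as a block 0 of the 37 passed, against 0.174% of all probe sets, and 3 had an unadjusted p under 0.05 (Olr1 and Cd36 lower in DKO, Ctsb higher) against 16.2%. The mean was higher in DKO for 15 and lower for 22 of the 37 genes, and lower for 50.7% of all probe sets. The median difference was -0.02 for the 37 genes and -0.0024 for all probe sets.

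**Figure D3:**
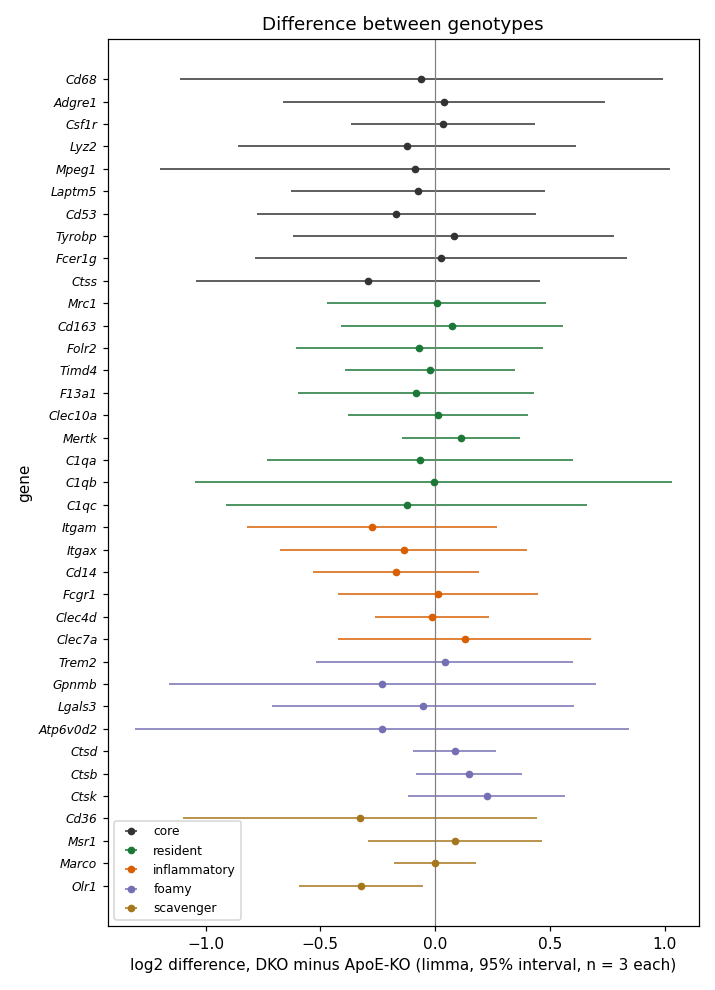
Difference between the genotypes for each of the 37 genes (DKO minus ApoE-KO, log2), with the 95% interval of the limma fit and 3 mice a group. The intervals of 36 genes cross 0 and that of Olr1 runs from -0.59 to -0.05.

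For most of the 37 genes the 3 DKO mice were spread more widely than the 3 ApoE-KO mice. The SD among the DKO mice was larger than that among the ApoE-KO mice for 31 of the 37 genes, against 43.8% of all probe sets, and over 2 times as large for 18, against 14.9%. The median SD of the 37 genes was 0.19 in ApoE-KO and 0.45 in DKO, where that of all probe sets was 0.12 and 0.11. For the core genes it was 0.15 in ApoE-KO and 0.66 in DKO. These genes shifted together, so the counts repeat the same few mice and are not separate observations. The mean deviation of the 37 genes was -0.54 in DKO replicate 1 and 0.37 in DKO replicate 2. With 3 mice a group these SDs are descriptions, and no test of the spread was run.

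Matched by replicate number, the genes split into 1 pair in which DKO was lower and 2 pairs in which it was higher. In pair 1, DKO was lower for 32 of the 37 genes, with a median of -0.57. In pair 2 it was higher for 31, with a median of 0.27, and in pair 3 for 31, with a median of 0.19. The medians of all probe sets were -0.00051, -0.0097 and 0.017. The order lower, higher, higher held for 24 of the 37 genes and for 11.0% of all probe sets.

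By role, the core genes had mean pair differences of -0.85, 0.44 and 0.23, the foam cell genes -0.62, 0.31 and 0.31, and the inflammatory genes -0.61, 0.26 and 0.13. The resident genes had smaller ones of -0.33, 0.14 and 0.14, and the scavenger receptors -0.29, 0.017 and -0.16. The mean over pairs was -0.06 ± 0.69 for the core genes, -0.02 ± 0.27 for the resident, -0.08 ± 0.47 for the inflammatory and -0.14 ± 0.15 for the scavenger receptors (SD, n = 3 pairs). For the foam cell genes it was -0.0020 ± 0.54. In each group the mean was smaller than the spread between pairs.

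**Figure D4:**
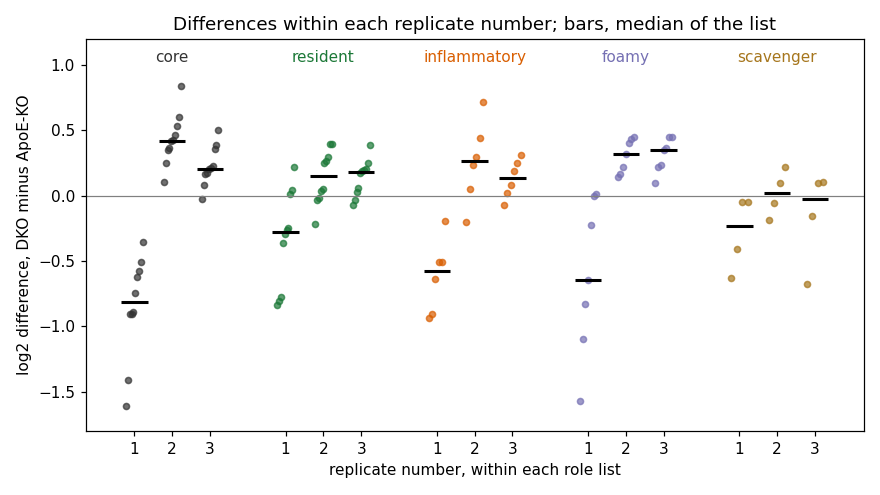
Log2 difference DKO minus ApoE-KO within replicate numbers 1, 2 and 3, with 1 point per gene (spread sideways in order of value) and a bar at the median, for each role group. The core medians were -0.82, 0.42 and 0.21.

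The median difference of the 37 genes moved up or down with the DKO mouse left out. Without DKO replicate 1 it was 0.23 and without DKO replicate 2 it was -0.25. In either unpaired fit 0 of the 37 passed. With both arrays of replicate 1 left out and the remaining 2 pairs blocked, 33 of the 37 genes were higher in DKO and 6 passed (limma, adjusted p from 0.0221 to 0.0456), against 1.09% of all probe sets passing on the higher side. At an unadjusted p of 0.05 it was 20 of the 37, all higher, against 10.6%. These 6, named after their values were seen, were Mpeg1 (0.67), Tyrobp (0.49), Ctsk (0.45), Atp6v0d2 (0.44), C1qb (0.39) and Cd68 (0.35). On the lower side 0 of the 37 passed, against 0.554%. That fit was chosen after the values were seen, and pair 1 was the pair in which most of these genes were lower in DKO. The higher side of the remaining 2 pairs is thus no separate result. The fit rests on 4 mice, and with pair 2 or pair 3 left out instead 0 of the 37 passed, against 0% and 0.190% of all probe sets.

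The balance between resident, inflammatory and foam cell genes was read from the mean deviations of each group, since levels of different probe sets cannot be set against each other. Foam cell minus resident was 0.22, -0.12 and -0.13 in ApoE-KO replicates 1 to 3 and -0.07, 0.04 and 0.04 in DKO. Inflammatory minus resident was 0.31, -0.21 and -0.01 in the ApoE-KO mice and 0.03, -0.09 and -0.02 in the DKO mice. Foam cell minus inflammatory was -0.08, 0.09 and -0.12 in the ApoE-KO mice and -0.09, 0.14 and 0.07 in the DKO mice. In all 3 contrasts the groups overlapped, and ApoE-KO replicate 1 stood out with inflammatory and foam cell genes high relative to resident ones.

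**Figure D5:**
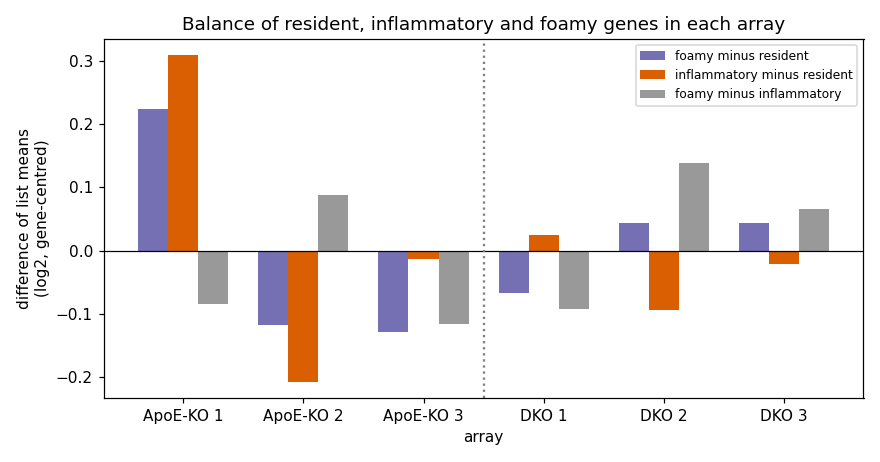
Difference between the mean gene-centred log2 values of pairs of role groups, in each array. ApoE-KO replicate 1 had the highest foam cell minus resident value, 0.22, and the highest inflammatory minus resident value, 0.31.

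The mean genotype difference was 0.014 ± 0.27 for foam cell minus resident, -0.06 ± 0.20 for inflammatory minus resident and 0.07 ± 0.10 for foam cell minus inflammatory (SD, n = 3 pairs). Each was smaller than its spread between pairs. With medians in place of means they were 0.15, -0.0071 and 0.15, and with a replicate number left out foam cell minus resident ran from -0.065 (without 3) to 0.17 (without 1) and inflammatory minus resident from -0.15 (without 2) to 0.052 (without 1). In DKO replicate 1, the mouse with the lowest values, core minus resident was -0.32, the lowest of the 6. Without the C1q chains the resident mean in that mouse was -0.28, foam cell minus resident was -0.24 and inflammatory minus resident -0.15.

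On a linear scale, the summed intensity of the 10 core genes ran from 13117 to 14201 in ApoE-KO and was 7791, 18663 and 14804 in DKO replicates 1 to 3. DKO replicate 2 thus stood 2.40-fold above DKO replicate 1, where the highest ApoE-KO mouse stood 1.08-fold above the lowest. A sum is carried by its brightest probe sets, so the sums given here and below are descriptions without a test. In whole aorta, fewer macrophages and less of each RNA per macrophage cannot be told apart.

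Markers of some other cell types differed between the same mice. Of all probe sets, 19.0% were lowest in DKO replicate 1 and 11.6% highest in DKO replicate 2. White fat markers, 11 of 12 measured, had summed intensities of 19802 to 29098 in ApoE-KO and 10369 to 19331 in DKO. The mean was lower in DKO for 10 of the 11 and higher for 1, and 10 of the 11 were lowest in DKO replicate 1. T cell markers, 7 of 8 measured, were also lowest in DKO replicate 1 for 6 of 7 (828 there, 1101 and 1130 in the other DKO mice and 1008 to 1079 in ApoE-KO). Neutrophil markers, 10 of 10 measured, summed to 923 to 1104 in ApoE-KO and 857 to 1102 in DKO, and 6 of the 10 were lowest in DKO replicate 1. The neutrophil marker of widest range, Csf3r, the receptor for G-CSF, read 7.11 in that mouse and 7.43 to 8.05 in the other 5. Retnlg, the next in range, went otherwise: it was lowest in ApoE-KO replicate 1, at 5.98, and read 6.41 in DKO replicate 1. Of the 10 neutrophil markers, 0 were highest in DKO replicate 2. Smooth muscle markers, 8 of 8 measured, summed to 57782 to 64720 in ApoE-KO and 60768 to 65606 in DKO, with the highest sum in DKO replicate 1. Acta2, the smooth muscle actin, had the narrowest range of them, between 13.97 and 14.06. Lmod1, the one of widest range, lay between 10.42 and 11.08, highest in DKO replicate 1. Mesothelium markers, 8 of 8 measured, summed to 1543 to 2021 in ApoE-KO and 2321 to 3280 in DKO, with 6 of 8 highest in DKO replicate 2. Lymphatic endothelium markers, 6 of 6 measured, summed to 3702 to 5083 in ApoE-KO and 2575 to 3524 in DKO, with 4 of 6 lowest in DKO replicate 1. B cell markers, 7 of 8 measured, summed to 649 to 896 in ApoE-KO and 713 to 926 in DKO, with 0 of 7 lowest in DKO replicate 1. The part of these cells in the macrophage pattern was not tested.

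Without the block 0 of these markers passed (limma). With it, 4 white fat markers and 1 lymphatic marker, Lyve1, which some resident macrophages also make, passed as lower in DKO, and 2 mesothelium markers passed as higher. Of all probe sets 0.174% passed with the block, in either direction. Lung markers, 11 of 11 measured, stood apart in both replicate 3 arrays, with a sum of 26611 in the ApoE-KO array and of 16421 in the DKO array, while the other 4 mice had 1304 to 1431. Of 7 listed markers of alveolar macrophages 5 were measured, with summed intensities of 865 and 858 in the replicate 3 arrays and 587 to 733 elsewhere. Plet1, the one of widest range, read 8.54 and 8.64 in the replicate 3 arrays but also 8.41 in DKO replicate 2, against 7.25 to 7.77 in the other 3. Chil3, a chitinase-like protein, read 6.00 and 5.85 in the replicate 3 arrays against 4.65 to 5.10 elsewhere, and Krt79 7.51 and 7.46 against 7.32 to 7.64. Marco, which these cells also make, read 6.98 and 7.08 in the replicate 3 arrays and 6.91 to 7.08 elsewhere. Without the replicate 3 arrays the median difference of the 37 genes was -0.12 and 0 of them passed with the block.

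Other genes of monocytes and macrophages were also mostly lowest in DKO replicate 1. Of 34 such genes outside the 37, among them transcription factors, chemokines and receptors, 32 were measured. Of these 32, 23 were lowest in DKO replicate 1 and 17 highest in DKO replicate 2, against 19.0% and 11.6% of all probe sets. In limma 0 of the 32 passed in either direction with or without the block, 16 were higher and 16 lower in DKO, and the median difference was -0.0086. The 4 with the smallest unadjusted p were Vsig4, a complement receptor of resident macrophages, at 0.58 (95% interval 0.04 to 1.11), Tlr2, a receptor for bacterial lipopeptides, at 0.18, Csf2rb, the shared chain of cytokine receptors, at -0.35, and Il34, a ligand of the Csf1 receptor, at -0.14.

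Vsig4 read 7.32, 7.73 and 7.60 in the ApoE-KO mice and 7.61, 8.49 and 8.27 in the DKO mice, higher in DKO in each pair. Its adjusted p was 0.861 without and 0.083 with the block, so it did not pass. It differed from the core genes in that DKO replicate 1 was not below all ApoE-KO mice.

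Of 31 genes of lipid handling and lysosomes outside the 37, 28 were measured, 14 were higher and 14 lower in DKO. In limma 0 passed with or without the block. With the block 13 of the 28 had an unadjusted p under 0.05, some higher and some lower in DKO, against 16.2% of all probe sets. Without the block, the 4 with the smallest unadjusted p included Scarb1, the HDL receptor (-0.24), and Acp5, the tartrate-resistant phosphatase (-0.48). The same 4 held Lpl, the lipoprotein lipase of adipocytes and macrophages (-0.54), and Psap, the precursor of the saposins that assist lysosomal lipid breakdown (0.14). Lpl read 10.73, 11.09 and 10.91 in the ApoE-KO mice and 9.91, 10.78 and 10.41 in the DKO mice, lower in DKO in each pair, with adjusted p of 0.861 without and 0.083 with the block. As Lpl is abundant in fat, its values stand beside the lower fat markers above, and the part of fat in them was not tested.

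The genes whose course over the 6 arrays was most like the mean of the 37 were chosen by Pearson correlation. They came from the 1261 genes with an SD of at least 0.3, leaving out the 22 of these that are among the 37. The closest was Nckap1l, the haematopoietic subunit of the WAVE complex (r = 0.996), followed by Pld4 (0.992), Cd74, the invariant chain of MHC class II (0.989), Il10ra (0.986), Fcgr3 (0.986), Cd72 (0.986), Itgb2 (0.980), Cfp, which encodes properdin (0.978), Rac2 (0.977), Ms4a6c (0.977), Ms4a7 (0.977) and Igsf6 (0.976). Nckap1l read 9.13, 9.36 and 9.03 in the ApoE-KO mice and 8.36, 9.68 and 9.33 in the DKO mice. These values describe 6 arrays that share their processing, were picked as the highest, and rest partly on DKO replicate 1, without which those of the 12 genes ran from 0.898 to 0.984.

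Among the 37 genes themselves, 19 correlated at 0.9 or more with their own mean, which they help to form, against 1.17% of all 19752 genes. Without DKO replicate 1 it was 11 of the 37, against 2.16%. The members least like the mean were Mertk (r = -0.36), Ctsd (0.08), Timd4 (0.35) and Olr1 (0.42).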

How the data were processed

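RNA from 6 aortas, 1 array each, was measured by the authors on a whole-transcript array. The deposited values are log2 intensities of 25254 probe sets, and RMA and Partek (versions not given) and the build mm9 stand in the submitters' processing notes. That the scale is log2 was read from the values. The design text of the series names a batch factor, which no sample label gives. The sources used here do not say whether a batch was removed. Each array had a median of 8.01 or 8.02, and the 3 arrays a group limit the precision.

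The platform annotation named 1 gene for 21496 probe sets, several for 1565 and none for 2193, and only the first were used for names. Entrez identifiers of 21415 matched RefSeq (GRCm38.p6) and 0 symbols changed. All probe sets were fitted with limma 3.58.1 in R 4.3.3 (lmFit, eBayes with trend, no filter), two-sided, with Benjamini-Hochberg adjustment over all of them at 0.05. Exact permutation over 3 and 3 mice could reach 0.1 at best and was not used. The fit without the block was tested on simulated data with independent noise, no replicate effect and no wider spread in DKO. That test thus does not cover the block fit or the spread of the 37 genes. Members, role groups and marker lists were chosen with earlier results of these data known, and named genes followed a rule: fits are printed for the 4 members of a role group, or of each of the lists of other macrophage and lipid genes, with the smallest unadjusted p (for members, with or without the block), for markers of other cells at most the 3 of widest range, and for likeness the 12 genes of highest r. Acta2, Krt79 and the 6 genes passing without pair 1 fall outside it and were named after their values were seen. Nothing says that the mice of a group were of separate litters, so p-values measure only the spread between these samples.

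Same-numbered arrays of the groups had deviations from their group means that correlated at 0.60, 0.50 and 0.64 over all probe sets, so the numbers were taken as pairs from the data. No label says what a number shares. Alternatives were the replicate block, each array or pair left out, a filter at the 40th percentile, quantile normalization applied again, arrays centred on their medians, eBayes robust or with no trend, probe sets naming 1 gene, other role groupings and medians for means.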

Additional observations from a re-analysis of the deposited data

How the results depend on the processing

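The 37 genes passed in 0 cases under every alternative fitted to all 6 arrays (replicate block, filter at the 40th percentile, which kept 31 of them, quantile normalization, centring on the median, eBayes robust or with no trend, probe sets naming 1 gene) and with each single array left out. The exception was the replicate block without pair 1, chosen after seeing the data, with 6 of the 37 and 415 probe sets passing. The replicate block passed 44 probe sets, 48 without pair 3 (also chosen after seeing the data), and leaving out single arrays 0 to 8, the last without DKO replicate 3. With an array left out all role medians turned sign, from the lower end without DKO replicate 2 to the upper end without DKO replicate 1: -0.35 to 0.33 for core, -0.21 to 0.20 for resident, -0.20 to 0.09 for inflammatory, -0.18 to 0.27 for foam cell and -0.23 to 0.0064 for scavenger genes. With the filter at the 40th percentile the inflammatory median was -0.17, against -0.07 with no filter. Averaging several probe sets of a gene changed nothing, since each member has 1.

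Signs of single differences that did not pass turned when an array was left out, and the cause was not tested. Their ranges were -0.41 to 0.27 for Lyz2, -0.22 to 0.21 for Laptm5, -0.44 to 0.12 for Cd53, -0.54 to 0.044 for Ctss, -0.092 to 0.25 for Cd163, -0.25 to 0.17 for Folr2, -0.26 to 0.14 for F13a1, -0.48 to 0.0011 for Itgam, -0.29 to 0.090 for Itgax, -0.080 to 0.38 for Clec7a, -0.56 to 0.27 for Gpnmb, -0.068 to 0.23 for Msr1 and -0.039 to 0.045 for Marco. Others kept their sign but moved over 1.5 times: Cd36 from -0.59 (without ApoE-KO replicate 1) to -0.03 (without DKO replicate 1), Cd14 from -0.28 (without ApoE-KO replicate 3) to -0.02 (without DKO replicate 1) and Mertk from 0.0038 (without ApoE-KO replicate 2) to 0.19 (without ApoE-KO replicate 1), with Ctsk, Ctsb and Ctsd staying above 0 and Olr1 below. The Marco difference was 0.043 after quantile normalization and 0.00095 after median centring. With 3 mice a group, a difference whose interval crosses 0 cannot be told from 0. The interval of Olr1 did not cross 0, but Olr1 did not pass over all probe sets.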
